A study of Mus musculus with 12 samples.

Results

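Adipocyte nuclei of mPRAT, a perirenal fat depot, were compared with adipocyte nuclei of iWAT, a subcutaneous white depot, in mice of the same age and temperature. The labels give the depots only by these abbreviations, which usually stand for medial perirenal and inguinal white adipose tissue. The data are single-nucleus RNA sequencing counts of 1 library per depot, prepared with 10x 3′ chemistry from sorted nuclei. Both libraries came from male C57BL/6J mice on normal chow at 22 °C. Their titles give an age of 6 months and their characteristics an age of 16 weeks, and the number of animals pooled in a library is not stated. Another 2 libraries, of the same depots and age after 3 days at 4 °C, served as a second pair that shares no library with the first. Libraries of iBAT, an interscapular brown depot, and lPRAT, the lateral perirenal depot, at 6 months and 22 °C are given for reference. For Ucp1 and Slc14a2 the libraries of other ages are used too: mPRAT and iBAT at 1 and 2 months (labelled 4 and 8 weeks) and lPRAT at 2 months, all at 22 °C, and iBAT at 6 months after cold.

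The nuclei were chosen by measured values. UMIs are the molecule counts of the assay. A nucleus was kept if 300 genes or more were detected and no more than 10% of its UMIs were mitochondrial. It was called an adipocyte when the summed UMIs of Adipoq, Plin1, Plin4, Lipe, Cidec and Acsl1 were at least 3 and above those of 6 endothelial, stromal and immune genes. This rule selected 4264 of 11412 kept nuclei in mPRAT (37.4%) and 5245 of 8280 in iWAT (63.3%), 9509 of 19692 in all. Over the 12 libraries of the series it selected 74816 of 106898 nuclei. With 3 UMIs, just inside the limit, lay 164 mPRAT and 250 iWAT nuclei, and with 2, just outside, 247 and 255. A further 949 mPRAT and 549 iWAT nuclei reached 3 UMIs but not the level of the other genes. The 6 adipocyte genes chose the nuclei, so their levels describe the choice. Adipoq, the adiponectin gene, was at 218 CPM in mPRAT and 227 CPM in iWAT, where CPM is the UMI count scaled to a total of 1000000. Plin1, a lipid droplet coat protein, was at 1085 and 862 CPM, Lipe, hormone-sensitive lipase, at 1059 and 1149 CPM, and Cidec, a protein of large droplets, at 1071 and 2073 CPM.

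Brown adipocytes hold many mitochondria and release heat through the uncoupling protein Ucp1 when noradrenaline raises cyclic AMP. White adipocytes hold 1 large lipid droplet, store triglyceride and secrete leptin. Perirenal fat of young rodents contains brown adipocytes, and the change of such cells towards a white appearance is called whitening.

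The name whitened is not in the labels, and the counts go only part of the way with it. Ucp1 in mPRAT adipocyte nuclei at 22 °C was at 106 CPM in the 1-month library, 231 in that of 2 months and 180 in that of 6 months. In the reference libraries at 6 months it was at 425 CPM in iBAT, 0.117 CPM in lPRAT and 0.716 CPM in iWAT. The 6-month mPRAT value was thus below that of iBAT and far above that of both white depots. The nuclei are therefore called mPRAT adipocyte nuclei here.

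The adipocyte nuclei gave 30581974 UMIs in mPRAT and 40479391 in iWAT, with medians of 6136.5 and 6213 UMIs per nucleus, and 7 of their barcodes occurred in both libraries. Markers of other cells were present in the adipocyte nuclei, and not equally. The sum of 9 B cell markers was 609 CPM in mPRAT and 277 CPM in iWAT adipocyte nuclei, with all 9 higher in mPRAT and none at 0. In the other nuclei it was 9847 and 2069 CPM. At least 1 UMI of the B or T cell markers was in 65.8% of mPRAT and 54.7% of iWAT adipocyte nuclei, and at least 2 were in 39.3% and 35.3%. The 6 Schwann cell markers summed to 328 and 430 CPM, and to 250 and 473 CPM in the other nuclei. The 6 adrenal cortex markers summed to 62.6 and 3.61 CPM, all 6 higher in mPRAT, and 2 of them were at 0 in iWAT. The 7 stromal progenitor markers summed to 104 and 254 CPM, 5 of them higher in iWAT, and the 6 endothelial markers to 55.8 and 33.4 CPM, all 6 higher in mPRAT. In the cold pair 3781 of 11157 mPRAT barcodes and 4949 of 5028 iWAT barcodes passed the limits, and 2337 and 2927 nuclei were called adipocytes.

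Promoters of 5 genes with higher levels in mPRAT are shown as examples of promoters that hold 1 short motif, from genes of different roles: Ucp1 for heat production, Slc27a2 and Acadvl for fatty acid activation and oxidation, and Acly and Elovl6 for fatty acid synthesis. Each run covers 250 bases before to 50 after the start of the gene in RefSeq on GRCm38.p6, read 5′ to 3′ on the strand of the gene. Capitals mark AGGTCA or its reverse complement, the half-site to which many nuclear receptors bind, among them those of retinoic acid, thyroid hormone and fatty acids.
Ucp1, chr8:83290098-83290397, plus strand: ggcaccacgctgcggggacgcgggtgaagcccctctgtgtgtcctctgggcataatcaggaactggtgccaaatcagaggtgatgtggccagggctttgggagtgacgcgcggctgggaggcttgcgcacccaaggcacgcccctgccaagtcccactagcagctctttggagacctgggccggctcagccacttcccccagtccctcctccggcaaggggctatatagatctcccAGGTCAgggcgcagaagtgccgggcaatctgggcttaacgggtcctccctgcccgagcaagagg
Slc27a2, chr2:126552774-126553073, plus strand: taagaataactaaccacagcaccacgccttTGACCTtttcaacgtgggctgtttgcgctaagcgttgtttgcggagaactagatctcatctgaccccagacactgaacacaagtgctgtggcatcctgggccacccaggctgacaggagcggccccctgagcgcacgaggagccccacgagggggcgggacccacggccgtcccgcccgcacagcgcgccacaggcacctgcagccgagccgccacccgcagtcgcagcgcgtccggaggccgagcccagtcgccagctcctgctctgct
Acadvl, chr11:70015379-70015678, minus strand: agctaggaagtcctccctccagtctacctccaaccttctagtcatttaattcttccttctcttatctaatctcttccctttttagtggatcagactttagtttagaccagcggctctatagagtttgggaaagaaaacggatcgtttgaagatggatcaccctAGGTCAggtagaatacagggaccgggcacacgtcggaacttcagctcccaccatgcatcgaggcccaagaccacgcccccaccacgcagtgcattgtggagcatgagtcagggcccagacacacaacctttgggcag
Acly, chr11:100527951-100528250, minus strand: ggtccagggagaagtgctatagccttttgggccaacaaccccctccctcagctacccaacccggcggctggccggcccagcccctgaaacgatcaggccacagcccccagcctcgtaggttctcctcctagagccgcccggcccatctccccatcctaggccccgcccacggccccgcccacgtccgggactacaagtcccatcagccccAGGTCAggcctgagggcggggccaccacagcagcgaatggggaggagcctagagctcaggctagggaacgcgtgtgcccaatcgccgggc
Elovl6, chr3:129532136-129532435, plus strand: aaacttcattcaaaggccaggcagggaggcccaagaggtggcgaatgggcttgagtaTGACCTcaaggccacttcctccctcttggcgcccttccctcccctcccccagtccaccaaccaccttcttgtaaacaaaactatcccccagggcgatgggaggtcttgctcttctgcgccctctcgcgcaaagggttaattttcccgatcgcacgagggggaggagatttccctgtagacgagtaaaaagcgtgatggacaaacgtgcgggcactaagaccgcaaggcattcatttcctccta

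The match began 14 bases before the start in Ucp1, 220 in Slc27a2, 87 in Acadvl, 40 in Acly and 193 in Elovl6. These 5 were picked among genes that hold the letters, after their levels were seen. Both strands were searched, and the ERR site TCAAGGTCA, also counted, contains this half-site. At least 1 match was found for 18.1% of the 27025 genes with a promoter in the table and for 947 of the 6701 genes counted in the comparison below that had one (14.1%). By list, a match was held by 3 of 15 thermogenic genes with a promoter (20%) and 3 of 18 fatty acid oxidation genes (16.7%). For fatty acid synthesis genes it was 4 of 15 (26.7%). Most genes of these lists thus lacked a match. Among genes at least 2-fold higher in mPRAT 107 of 485 held it (22.1%), and among those at least 2-fold higher in iWAT 30 of 268 (11.2%). The ERR site itself was in 3 and 0 of these promoters and in 0.209% of the genes counted. The CCAAT box, CCAAT, was in 12 of the 15 promoters found for a list of fatty acid synthesis genes and in 42.7% of the genes counted, 45.0% of those higher in mPRAT and 39.6% of those higher in iWAT. The NRF1 site was in 6 of 18 promoters of respiratory chain genes (33.3%) and in 12.98% of the genes counted, but in 9.28% of those higher in mPRAT and 4.85% of those higher in iWAT. The lists named for the CCAAT box and the NRF1 site had the highest shares of the lists searched for them. Other motifs searched were the E-box CACGTG, the CRE TGACGTCA and the SRE TCACNCCAC, at 12.3%, 3.73% and 1.30% of the genes counted. A match describes the letters of a window and is not a binding site.

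Of all genes, 8474 had a mean of at least 10 CPM over both libraries and were counted. With 1 CPM added to both values, 645 of them (7.61%) were at least 2-fold higher in mPRAT and 380 (4.48%) at least 2-fold higher in iWAT. The median log2 ratio of mPRAT over iWAT was 0.09. At 4-fold the numbers were 150 and 82. The counts depend on low values: they were 357 and 253 with 10 CPM added, and 1418 and 624 with a mean of at least 1 CPM. A ratio of 2 stands in for a test, because 1 library per depot gives no replicates, no standard error and no p-value. All intervals given are 95% intervals of counting error only (exact Poisson for a level, exact conditional binomial for a ratio). Differences between animals, dissections and library preparations cannot be told apart from the depots. With the TMM scaling of edgeR the median log2 ratio moved to -0.07 and the split to 481 genes higher in mPRAT and 504 higher in iWAT. The ratios below are read against that shift, which the choice of scaling sets. It also turns the sign of the median log2 ratio of the adipokine list (0.10 and -0.06 with TMM) and of the list of adipogenic factors (0.04 and -0.12).

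**Figure D1:**
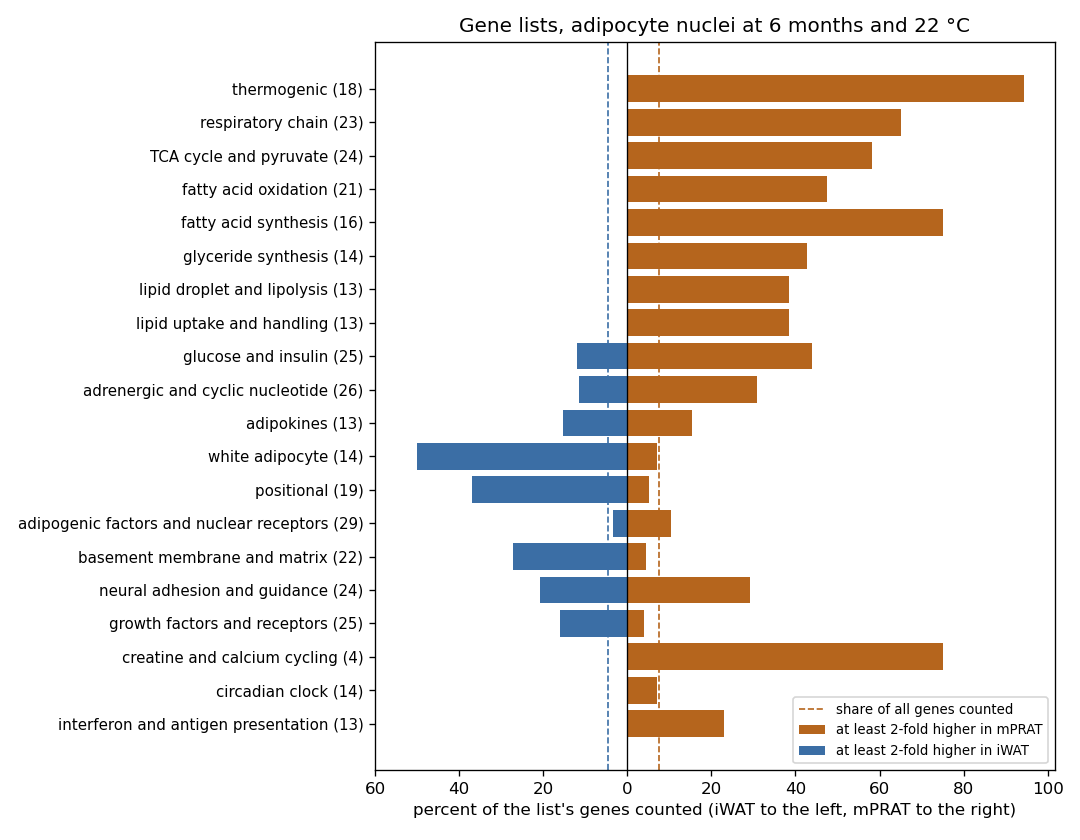
Percent of the counted genes of 20 gene lists that were at least 2-fold higher in mPRAT (bars to the right) or in iWAT (bars to the left), with the number of genes counted in brackets and dashed lines at the shares of all genes, 7.61% and 4.48%. Bars for heat production, mitochondria and fatty acid synthesis reach only to the right, and the bars of the white adipocyte, positional and matrix lists reach mostly to the left.

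Among the 20 gene lists, genes of heat production separated the depots furthest. The lists were chosen with earlier results of these data known, so this order and the list counts are descriptions. Ucp1, Cidea, Esrrg, Gk and Pank1 of this list are also among the 12 genes with the highest ratios. Among all genes 7.61% were at least 2-fold higher in mPRAT and 4.48% in iWAT. Of the 18 counted genes of the thermogenic list, 17 were at least 2-fold higher in mPRAT and 0 in iWAT. Their median log2 ratio was 3.43. The exception was Prdm16, a regulator of brown and beige identity, at 622 CPM in mPRAT and 556 CPM in iWAT. Elovl3 and Cox7a1 were below the level needed to be counted. Ucp1 (chromosome 8, 83290352 to 83298452) had 180 CPM in mPRAT (175 to 185) and 0.716 CPM in iWAT (0.480 to 1.03), a ratio of 251 (175 to 375). With the mean over nuclei in place of the sum that ratio was 153. After cold it had 671 and 30.0 CPM. Cidea, a droplet protein of brown fat, had 499.9 CPM in mPRAT and 19.5 CPM in iWAT at 22 °C, and 591 and 88.1 CPM in the cold. Dio2, which activates thyroid hormone, had 47.8 and 0.321 CPM, and Slc27a2, a fatty acid transporter and acyl-CoA synthetase, 76.3 and 0.346 CPM. For both genes iWAT lay below 1 CPM, and in iBAT the values were 63.7 and 235 CPM.

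Apart from Prdm16, the regulators on this list were at least 2-fold higher as well, with smaller ratios. Esrrg, an orphan nuclear receptor of mitochondrial genes, had 1126 CPM in mPRAT and 76.9 CPM in iWAT. Ppara, the receptor for fatty acids, had 1696 and 203 CPM, Ppargc1a 588 and 124 CPM and Ppargc1b 1440.0 and 227 CPM, the last 2 being coactivators of mitochondrial growth. Ebf2, a factor of brown precursors, had 1374 and 527 CPM, and in the cold pair 645 and 627 CPM, which is within 2-fold. Esrra was also within 2-fold in the cold pair, at 243 and 132 CPM. Of the 20 thermogenic genes counted in the cold pair, 17 were at least 2-fold higher in mPRAT. Among all genes of the cold pair 16.7% were higher in mPRAT and 6.51% in iWAT, against 7.61% and 4.48% at 22 °C, so cold counts have their own baseline.

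**Figure D2:**
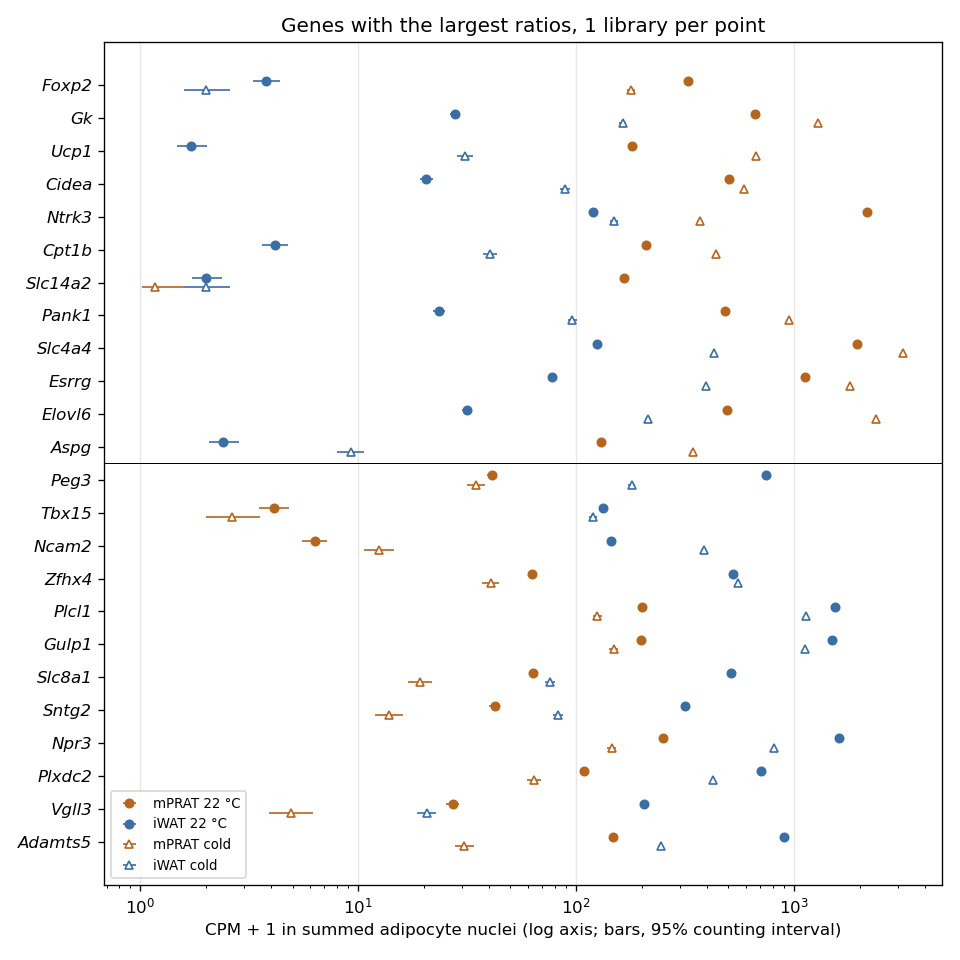
Levels in summed adipocyte nuclei (CPM with 1 added, log axis) of the 12 genes with the highest and the 12 with the lowest ratio of mPRAT to iWAT, in the libraries at 22 °C (filled circles) and after cold (open triangles), 1 library per point with 95% counting intervals. At 22 °C every mPRAT point of the upper 12 genes lies to the right of its iWAT point, and in the cold pair this holds for 11 of them, all but Slc14a2.

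Among the 12 genes with the highest ratios, ranked with 10 CPM added, Foxp2 came first and belongs to no metabolic list. Foxp2, a forkhead transcription factor known from brain and lung development (chromosome 6, 14901349 to 15441977), had 324 CPM in mPRAT (317 to 330) and 2.79 CPM in iWAT (2.30 to 3.36), a ratio of 116 (96.4 to 141). After cold it had 177 and 1.00 CPM. It was also at 182 CPM in iBAT and at 21.4 CPM in lPRAT. Its level in endothelial nuclei, 49.8 CPM in mPRAT and 21.5 CPM in iWAT, was above that of iWAT adipocyte nuclei.

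Slc4a4, a bicarbonate cotransporter, had 1953 CPM in mPRAT and 124 CPM in iWAT, and Ntrk3, the receptor for neurotrophin-3, had 2175 and 119 CPM. Ntrk3 was closer between the depots in the cold pair, with 368 CPM in mPRAT and 148 CPM in iWAT. Pank1, which starts coenzyme A synthesis, had 481 and 22.5 CPM, and Gk, glycerol kinase, 663 and 26.8 CPM. Aspg, an asparaginase, had 130 CPM in mPRAT (126 to 134) and 1.41 CPM in iWAT (1.07 to 1.82), and 633 CPM in iBAT. All 5 of these genes were also higher in iBAT than in lPRAT. Ucp1, Cidea, Esrrg, Cpt1b and Elovl6 were also among the 12 and are described with their lists.

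Slc14a2, a urea transporter best known from kidney, stood apart from the rest. It had 165 CPM in mPRAT and 1.01 CPM in iWAT at 22 °C, but 0.164 CPM in cold mPRAT. The mPRAT library of 1 month had 301 CPM and that of 2 months 5.40 CPM. In all 8 libraries of the other depots it was at most 3.76 CPM. The 6 kidney tubule markers (Slc34a1, Lrp2, Slc12a1, Umod, Slc5a12 and Kap) summed to 1.73 CPM in mPRAT adipocyte nuclei at 6 months and 0.420 CPM in iWAT. They may not cover every kidney segment, and they were not summed for the library of 1 month. Whether kidney RNA bears on the Slc14a2 level was not tested. Slc14a2 was thus high in 2 of the 4 mPRAT libraries and low in the other 2.

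Mitochondrial energy genes were higher in mPRAT by less than the thermogenic genes. Of 23 counted genes of the respiratory chain and ATP synthase, 15 were at least 2-fold higher in mPRAT and 0 in iWAT. Their median log2 ratio was 1.27, and the shares of all genes were 7.61% and 4.48%. Cyc1, cytochrome c1, had 25.8 and 5.46 CPM, and Atp5b, a subunit of ATP synthase, 100.4 and 40.9 CPM. Cox8b, the muscle and brown fat form of a cytochrome oxidase subunit, is in the thermogenic list and had 35.5 and 1.98 CPM. With 10 CPM added to both values 6 respiratory genes were left, since many lie near 20 CPM. In the cold pair 18 of 23 were at least 2-fold higher in mPRAT, beside 16.7% of all genes there.

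Of the 24 genes of the citrate cycle and pyruvate entry, 14 were at least 2-fold higher in mPRAT and 0 in iWAT. The shares of all genes were 7.61% and 4.48%. Pdk4, the kinase that closes pyruvate dehydrogenase, had 434 and 63.3 CPM. Sucla2, a subunit of succinyl-CoA synthetase, had 271 and 68.8 CPM. The genes higher in mPRAT thus included an enzyme of the cycle and an inhibitor of pyruvate entry. They also included Mpc1 and Mpc2, of the pyruvate carrier, and Pdha1, Pdhb and Dlat, of pyruvate dehydrogenase itself.

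In fatty acid oxidation 10 of 21 counted genes were at least 2-fold higher in mPRAT and 0 in iWAT, with a median log2 ratio of 0.95. The shares of all genes were 7.61% and 4.48%. Cpt1b, the muscle form of the enzyme that admits fatty acids to mitochondria, had the largest ratio, with 209 CPM in mPRAT (204 to 214) and 3.16 CPM in iWAT (2.64 to 3.76). After cold it had 439 and 39.2 CPM. Acadvl, which starts oxidation of long chains, had 33.1 and 7.26 CPM, and Hadhb, a subunit of the trifunctional protein, 333 and 96.8 CPM. Fabp3, the heart type fatty acid binding protein, is in the list of lipid uptake and had 21.2 CPM in mPRAT (19.6 to 22.9) and 0.148 CPM in iWAT (0.0544 to 0.323).

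Transcripts of fatty acid synthesis genes were higher in mPRAT than in iWAT. Of 16 counted genes of that list, 12 were at least 2-fold higher in mPRAT and 0 in iWAT, beside 7.61% and 4.48% of all genes. The median log2 ratio was 1.91, above that of the oxidation genes. Fasn, fatty acid synthase, had 321 CPM in mPRAT (314 to 327) and 19.4 CPM in iWAT (18.1 to 20.9), a ratio of 16.5 (15.3 to 17.8). Acly, which makes cytosolic acetyl-CoA from citrate, had 326 and 29.3 CPM, a ratio of 11.1 (10.5 to 11.8). Elovl6, which lengthens palmitate, had 490.2 and 30.7 CPM, a ratio of 16.0 (15.1 to 16.9). Scd2, a desaturase, had 30.2 and 2.42 CPM. In the white depot lPRAT these were also low: Fasn was at 46.5, Acly at 37.2 and Elovl6 at 13.9 CPM, while in iBAT they were at 957, 814 and 1491 CPM.

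After cold the distance in this list was smaller, with 9 of 18 counted genes at least 2-fold higher in mPRAT, 0 higher in iWAT and a median log2 ratio of 1.11, beside 16.7% and 6.51% of all genes. Acaca, acetyl-CoA carboxylase, had 4012 CPM in mPRAT and 1038 CPM in iWAT at 22 °C, but 4428 and 3128 CPM in the cold pair. Me1, malic enzyme, had 732 and 198 CPM at 22 °C and 1706 and 1630.3 CPM in the cold pair. Both genes were thus more than 2-fold apart at 22 °C and within 2-fold after cold; the iWAT level was higher in the cold library than at 22 °C. Whether the ratio changed between the pairs was not tested.

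The other lipid lists had ratios closer to 1, and their counts stand beside 7.61% and 4.48% of all genes. Of 14 counted genes of glyceride synthesis, 6 were at least 2-fold higher in mPRAT and 0 in iWAT. The 6 include Gk, which is also in the thermogenic list. Gpd2, mitochondrial glycerol phosphate dehydrogenase, had 454 and 80.4 CPM, and Agpat2, an acyltransferase, 289 and 73.9 CPM. In the droplet and lipolysis list 5 of 13 were higher in mPRAT and 0 in iWAT, and the 5 include Cidea, also in the thermogenic list. Plin5, a droplet coat protein of oxidative tissues, had 46.7 and 7.58 CPM, and Plin2 405 and 144 CPM. Pnpla2, adipose triglyceride lipase, was at 141 and 122 CPM, within 2-fold. In the uptake list 5 of 13 were higher in mPRAT and 0 in iWAT, among them Lpl, lipoprotein lipase, at 1220.3 and 557 CPM. Lpl was at 1873 and 2059 CPM in the cold pair.

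Glucose and insulin genes went both ways. Of 25 counted, 11 were at least 2-fold higher in mPRAT and 3 in iWAT, beside 7.61% and 4.48% of all genes. Gys2, glycogen synthase of liver and fat, had 75.8 CPM in mPRAT and 7.76 CPM in iWAT, and Hk2, a hexokinase, 462 and 170.3 CPM. Slc2a4, the insulin-dependent glucose transporter, had 72.3 and 31.8 CPM. The 3 genes higher in iWAT were Grb14, an inhibitor of the insulin receptor, at 173 and 526 CPM, Irs2, an adaptor of that receptor, at 87.2 and 213 CPM, and Slc2a3, a glucose transporter, at 41.1 and 94.0 CPM. Insr, the receptor itself, was within 2-fold, at 613 and 702 CPM. Grb14 was at 137 and 140 CPM in the cold pair.

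In adrenergic and cyclic nucleotide signalling 8 of 26 counted genes were at least 2-fold higher in mPRAT and 3 in iWAT. The shares of all genes were 7.61% and 4.48%. Adrb1 and Adra1a, receptors for noradrenaline, had 58.8 against 24.5 CPM and 456 against 184 CPM. Adrb3, the main beta receptor of rodent fat, was within 2-fold, at 541 and 383 CPM. Rgs2, which shortens receptor signals, had 71.5 CPM in mPRAT and 3.38 CPM in iWAT, and 54.6 and 12.98 CPM after cold. The 3 genes higher in iWAT were Npr3, the clearance receptor for natriuretic peptides, at 250.4 and 1601 CPM, Adcy5, an adenylyl cyclase, at 274 and 601 CPM, and Gnai1, an inhibitory G protein, at 280.1 and 569 CPM. Npr1, the signalling receptor for those peptides, went the other way, with 21.4 and 3.16 CPM, so that the pair of receptors differed in opposite directions between the depots. In the cold pair Npr1 was at 66.0 and 4.23 CPM and Npr3 at 145 and 809 CPM.

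Of the 4 genes of creatine and calcium cycling that could be counted, 3 were at least 2-fold higher in mPRAT, beside 7.61% of all genes. They were led by Itpr2, a calcium release channel, at 788 and 155 CPM. With 10 CPM added 1 of the list was left higher in mPRAT, and with TMM scaling also 1. The other 11 genes of that list were too low to count. Of 14 clock genes 1 was at least 2-fold higher in mPRAT and 0 in iWAT, a share of 7.14% against 7.61% of all genes, and that gene was Bhlhe40, a repressor, at 60.2 and 11.04 CPM. The collection hour is not in the labels. Of 13 counted interferon and antigen presentation genes, H2-K1, H2-D1 and Cd274 were at least 2-fold higher in mPRAT, H2-K1 with 314 and 149 CPM. In iWAT 0 of that list were higher, and the shares of all genes were 7.61% in mPRAT and 4.48% in iWAT. Without nuclei that had at least 2 UMIs of B or T cell markers 1 of that list was left higher in mPRAT and 1 was higher in iWAT, and with TMM scaling 1 was left higher in mPRAT.

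Genes linked to white adipocytes stood on the side of iWAT or within 2-fold, with 1 exception. Of the 14 counted, 7 were at least 2-fold higher in iWAT, 6 were within 2-fold and 1 was higher in mPRAT, with a median log2 ratio of -0.93. In the cold pair 9 of 12 were higher in iWAT and 0 in mPRAT, beside 6.51% and 16.7% of all genes. Lep, leptin, had 104 CPM in mPRAT and 233 CPM in iWAT, and 20.1 and 105 CPM after cold. Nnat, neuronatin, had 740 and 1879 CPM, Aldh1a1, which makes retinoic acid, 158 and 681 CPM, and Mest, an imprinted gene linked to fat cell growth, 9.65 and 94.5 CPM. Slc7a10, a neutral amino acid transporter of white fat, had 214 and 459 CPM. Aldh1a1 and Mest were thus more than 4-fold apart, while Lep and Slc7a10 lay close to 2-fold.

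The exception was Cyp2e1, a cytochrome P450 of white fat and liver. It had 629 CPM in mPRAT (620 to 638) and 232 CPM in iWAT (228 to 237), but 437 and 684 CPM in the cold pair. In lPRAT it was at 1399 CPM and in iBAT at 10.3 CPM. Its direction between mPRAT and iWAT was therefore not the same in both pairs, while it was highest in lPRAT among the libraries at 6 months. Car3, Retn and Igf1 were within 2-fold: Car3 had 3538 and 3099 CPM, Retn 120 and 112 CPM and Igf1 329 and 476 CPM.

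Ranked with 10 CPM added, Peg3 and Tbx15 headed the genes higher in iWAT. With 1 CPM added the log2 ratio was -4.18 for Peg3, -5.02 for Tbx15 and -4.52 for Ncam2, which is described below. Peg3, an imprinted zinc finger gene (chromosome 7, 6703892 to 6730431), had 40.1 CPM in mPRAT (37.8 to 42.4) and 741 CPM in iWAT (732 to 749), 18.5-fold more in iWAT (17.5 to 19.6). In lPRAT it was at 855 CPM and in iBAT at 153 CPM, so that mPRAT had less than the brown depot. Tbx15, a T-box factor of subcutaneous fat (chromosome 3, 99240381 to 99354259), had 3.11 CPM in mPRAT (2.51 to 3.80) and 132 CPM in iWAT (128 to 136). After cold it had 1.64 and 119 CPM. It was at 13.6 CPM in lPRAT and 13.9 CPM in iBAT.

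Ncam2, a neural adhesion molecule, had 5.33 CPM in mPRAT and 144 CPM in iWAT, and 11.5 and 384 CPM after cold. Zfhx4, a large zinc finger homeobox gene, had 61.8 and 526 CPM, with 689 CPM in iBAT and 176 CPM in lPRAT. Plcl1, a phospholipase-like regulator of receptor trafficking, had 200.4 and 1542 CPM, and Gulp1, an adaptor of engulfment, 197 and 1492 CPM. Slc8a1, a sodium calcium exchanger, had 62.6 and 515 CPM, Vgll3, a transcription cofactor, 26.1 and 204 CPM, and Adamts5, a matrix protease, 147 and 902 CPM. The set of 12 also held Npr3, described with adrenergic signalling, Sntg2 at 41.3 and 316 CPM, and Plxdc2 at 107 and 704 CPM. All 12 were also at least 2-fold higher in iWAT in the cold pair.

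Positional genes mark where along the body a tissue formed. Of 19 counted positional genes, 7 were at least 2-fold higher in iWAT (Hoxb3, Hoxb4, Hoxb6, Hoxc5, Hoxc8, Hoxc9 and Tbx15) and 1, Pbx3, in mPRAT. Among all genes 4.48% were higher in iWAT and 7.61% in mPRAT. Hoxc8, which patterns the trunk, had 29.3 and 92.0 CPM, and Hoxc9 had 10.2 and 28.5 CPM. In the cold pair Hoxc8 was at 34.5 and 93.7 CPM and Hoxc9 at 11.5 and 29.2 CPM. Hoxb3, Hoxb4 and Hoxb6 did not keep their side: Hoxb6 had 9.84 and 29.0 CPM at 22 °C and 23.0 and 15.9 CPM in the cold pair. Hoxa9 was within 2-fold in both pairs, at 39.7 and 45.5 CPM in the first. With 10 CPM added 3 of the 7 were left, and without the limit on low levels there were 13.

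Among adipogenic factors and nuclear receptors 3 of 29 were at least 2-fold higher in mPRAT and 1 in iWAT, shares of 10.3% and 3.45% that lie near those of all genes. The gene higher in iWAT was Ghr, the growth hormone receptor, at 6161 CPM in mPRAT (6134 to 6189) and 21560.3 CPM in iWAT (21515 to 21606). In the cold pair it was at 5360.3 and 18990 CPM, in lPRAT at 16037 CPM and in iBAT at 1789 CPM. Pparg, the master regulator of adipocytes, was within 2-fold, at 3929 and 2415 CPM. Nr4a1, an early response gene, had 45.2 CPM in mPRAT and 7.06 CPM in iWAT.

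Of 22 counted basement membrane and matrix genes, 6 were at least 2-fold higher in iWAT and 1 in mPRAT. The shares of all genes, 4.48% and 7.61%, are the baseline for the counts of this paragraph. Col6a3, a collagen VI chain, had 22.2 and 76.8 CPM, Col5a3 35.0 and 128 CPM, and Sparc, a collagen-binding protein, 61.3 and 135 CPM. Col4a5 was the 1 gene higher in mPRAT, at 18.2 and 3.63 CPM. Stromal progenitor markers, which include collagen genes, were higher in the iWAT nuclei too (104 and 254 CPM), and their part in these values was not tested. Of 25 growth factor genes 4 were higher in iWAT (16%) and 1 in mPRAT (4%, below the share of all genes). The gene higher in mPRAT, Bmpr1b, dropped below 2-fold with 10 CPM added. Bmp3, a bone morphogenetic protein, had 9.58 and 65.4 CPM, and Fgf2 had 36.9 and 121 CPM. Neural adhesion and guidance genes went both ways, with 7 of 24 at least 2-fold higher in mPRAT and 5 in iWAT. Erbb4, the receptor of neuregulins, had 1661 and 740 CPM, and its ligand Nrg4 a log2 ratio of 1.08. Slit3, a guidance ligand, had 1496 and 3828 CPM, and Slit2 had 28.2 and 4.84 CPM. The adipokine list was even, with 2 of 13 higher in mPRAT (Nrg4 and C3) and 2 in iWAT (Lep and Itih5).

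The cold pair was used to see which genes stood on the same side in libraries the first comparison did not use. In it 1397 of 8353 counted genes (16.7%) were at least 2-fold higher in mPRAT and 544 (6.51%) at least 2-fold higher in iWAT. Of the genes apart, 72.0% were thus higher in mPRAT, and 57.7% with TMM scaling, which moved the median log2 ratio from 0.19 to -0.03. At 22 °C the same shares were 62.9% and 48.8%. Markers of other cells and mitochondrial RNA stood apart in the cold mPRAT nuclei. The 6 epithelial markers summed to 221 CPM in cold mPRAT and 2.84 CPM in cold iWAT, with none at 0 in either, and the 6 adrenal cortex markers to 159 and 3.62 CPM, with 4 at 0 in iWAT. Mitochondrial-encoded UMIs made up 1.78% and 0.137%. Their part in the counts of the cold pair was not tested. Of the 645 genes higher in mPRAT at 22 °C, 577 were counted in the cold pair and 437 of them were at least 2-fold higher in mPRAT again (75.7%). Among all 7904 genes counted in both pairs that share was 13.4%. Of the 380 genes higher in iWAT, 294 were counted and 191 were at least 2-fold higher in iWAT again (65.0%), against 6.68% of all. The opposite side, past 2-fold, was taken by 4 and 2 genes. These depot differences hold cold exposure in both members of the pair, so the pairs are not replicates of each other.

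**Figure D3:**
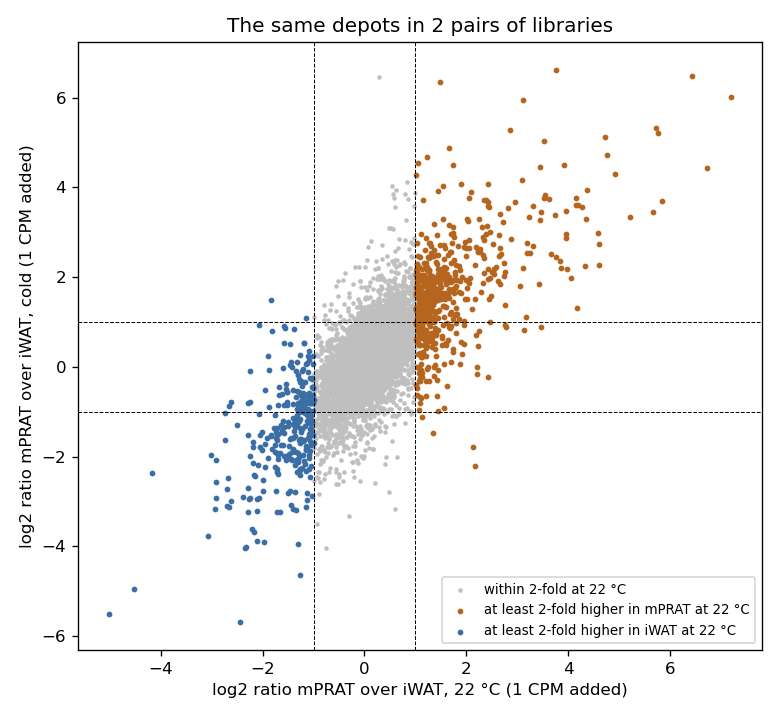
Log2 ratio of mPRAT over iWAT at 22 °C (x axis) and after cold (y axis), with 1 CPM added, for the 7904 genes counted in both pairs, with 1 point per gene and dashed lines at 2-fold. Most coloured points, the genes at least 2-fold apart at 22 °C, lie on the same side of 0 in both pairs.

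A sum over nuclei can hide a mixture, so the nuclei were also read singly. Each was thinned to 2000 UMIs, which left out 249 mPRAT and 564 iWAT nuclei with fewer. Of the reference nuclei it left out 7791 of 18769 in iBAT and 330 of 2316 in lPRAT. The iBAT values per nucleus below, and the limit taken from them, thus describe its deeper nuclei. A Ucp1 UMI was found in 825 of 4015 mPRAT nuclei, 20.5% (exact Clopper-Pearson interval 19.3% to 21.8%), and in 3 of 4681 iWAT nuclei, 0.0641% (0.0132% to 0.187%). Endothelial nuclei, which should lack Ucp1, showed it in 1.97% of 864 in mPRAT and 1.54% of 130 in iWAT, so the iWAT adipocyte share was not above this background. Median depth before thinning was 2162 and 1690.0 UMIs over all endothelial nuclei, 1511 in mPRAT and 341 in iWAT. Thinning left out 647 and 211 of them, and the iWAT endothelial share of Ucp1 rests on 2 nuclei. Nnat was found in 32.0% of mPRAT and 72.8% of iWAT adipocyte nuclei, against 12.2% and 40.0% of endothelial nuclei. Slc7a10 was found in 21.0% and 51.2%, Lep in 13.5% and 26.5%, and Cyp2e1 in 45.9% and 31.6%. Without thinning the shares were 28.2% and 0.248% for Ucp1, 45.8% and 85.5% for Nnat, 34.7% and 74.4% for Slc7a10, 28.7% and 49.1% for Lep and 60.0% and 49.7% for Cyp2e1. The endothelial shares of Slc7a10, Lep and Cyp2e1 were 3.36%, 0.347% and 6.94% in mPRAT and 14.6%, 3.08% and 6.92% in iWAT, all below those of the adipocyte nuclei.

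The summed thermogenic list spread widely among mPRAT nuclei. Per 2000 UMIs its median was 13 in mPRAT, with 5 and 37 UMIs at the 25th and 75th percentiles. In iWAT the median was 4, with 2 and 6 UMIs, in lPRAT 2, with 1 and 3, and in iBAT 41, with 33 and 51. The white adipocyte list had a median of 13 UMIs in mPRAT (5 and 24), 25 in iWAT (19 and 31), 34 in lPRAT and 4 in iBAT. The mPRAT nuclei thus covered both the range of the white depots and that of iBAT.

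**Figure D4:**
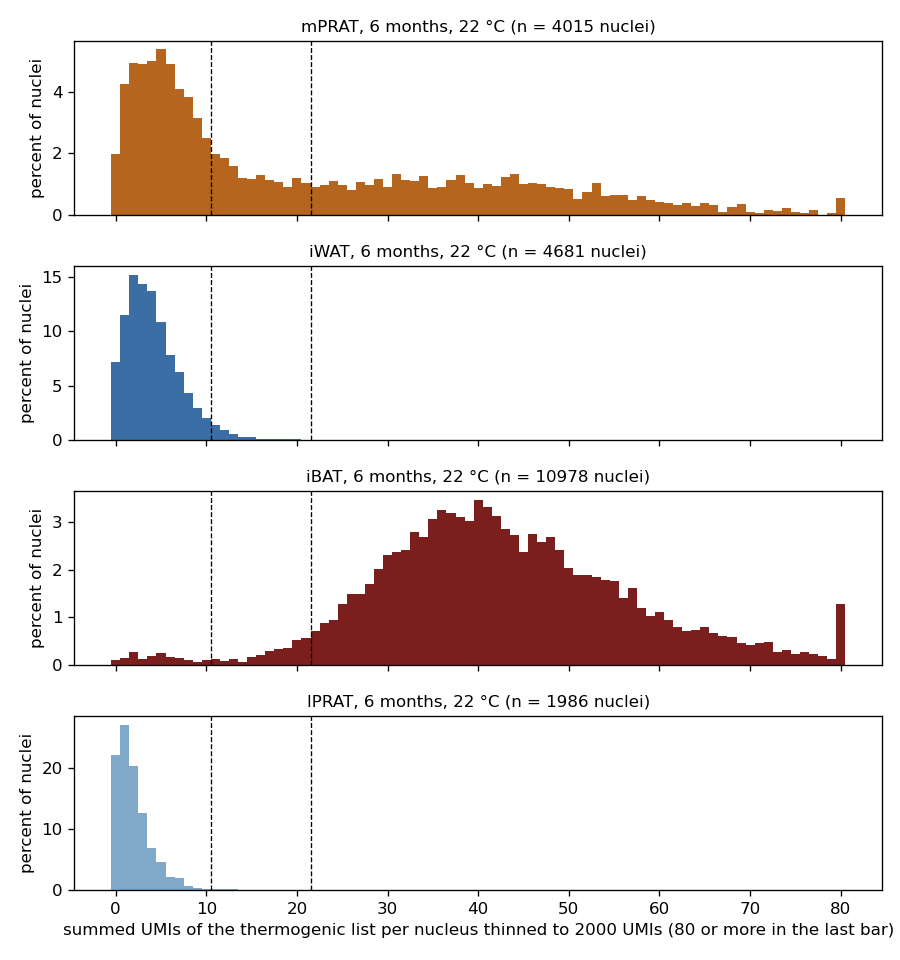
Percent of adipocyte nuclei (y axis, scaled for each library) by summed UMIs of the thermogenic list per nucleus thinned to 2000 UMIs (x axis) in mPRAT, iWAT, iBAT and lPRAT at 6 months and 22 °C, with dashed lines between 10 and 11 and between 21 and 22 UMIs. The mPRAT nuclei have a peak at 5 UMIs and a long flat tail over the iBAT range, whereas iWAT and lPRAT nuclei stay at the left.

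To describe this spread, 3 ranges were set after it was seen. The low range, at most 10 UMIs, ends at the 95th percentile of iWAT, and the high range, from 22 UMIs, begins at the 5th percentile of iBAT. In mPRAT 1805 of 4015 nuclei were in the low range (45.0%), 579 in the middle (14.4%) and 1631 in the high range (40.6%). In iWAT the numbers were 4506, 174 and 1 of 4681. Cold mPRAT had 32.1% of 2065 nuclei in the low and 60.1% in the high range, and cold iWAT 84.4% and 6.61% of 2709. These are ranges of a score, not cell types: 381 mPRAT nuclei lay from 9 to 12 UMIs and 165 from 20 to 23. Median depth before thinning was 7148 UMIs in the low and 5720 in the high range of mPRAT. Stromal progenitor markers summed to 139 CPM in the low, 64.3 in the middle and 60.5 CPM in the high range, endothelial markers to 61.4, 38.0 and 41.4 CPM, and B cell markers to 585, 537 and 406 CPM. Their part in the ranges was not tested.

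The gene differences from iWAT were then split by range, each range set against the low range of iWAT. The ranges share limits and not levels. Of the 18 counted thermogenic genes, 10 were still 2-fold or more above iWAT in the low range, with Ucp1 at 4.99 and 0.413 CPM. A Ucp1 UMI was also in 17 of 864 endothelial nuclei of mPRAT thinned to 2000 UMIs (1.97%). The low range value was not tested against this background and is not read as Ucp1 expression of those nuclei. Because the thermogenic list made the ranges, it was left out of the counts that follow, and all values are descriptions. In the low range 417 of 8412 genes (4.96%) were at least 2-fold higher in mPRAT and 214 (2.54%) in iWAT. In the high range 1042 of 8396 (12.4%) were higher in mPRAT and 956 (11.4%) in iWAT, so the shares of all genes differ between the ranges by more than 2-fold. Of the 645 genes higher in mPRAT over all nuclei, 628 are outside the thermogenic list. At least 2-fold higher in the low range were 340 of them (54.1%), and in the high range 542 (86.3%). Of the 380 genes higher in iWAT, 192 (50.5%) and 371 (97.6%) were at least 2-fold lower in the low and high range of mPRAT. These sets were chosen from the same nuclei, so their shares are no independent support.

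Foxp2 was high in all 3 ranges, with 310 CPM (301 to 319) in the low, 354 (337 to 373) in the middle and 337 (326 to 349) in the high range. In the low range of iWAT it was at 2.33 CPM. Zfhx4 was even across the ranges, at 61.9, 64.6 and 61.3 CPM against 525 CPM in iWAT. Tbx15 stayed low throughout, at 3.83, 4.35 and 1.62 CPM against 132 CPM in iWAT. Peg3 had 60.8, 27.9 and 15.4 CPM against 752 CPM in iWAT. By ratio, the low range of mPRAT was closer for these 4 genes to the high range of its own depot than to iWAT. They were picked from the 24 genes with the highest and lowest ratios, and others of the 24 went the other way. Plcl1 had 316 CPM in the low and 27.3 CPM in the high range against 1559 CPM in iWAT. Ntrk3 had 589 and 4514 CPM against 115 CPM, and Cpt1b 23.9 and 510 CPM against 2.82 CPM. For these the low range was closer to iWAT by ratio.

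Fatty acid synthesis genes were apart from iWAT in both the low and the high range. In the low range 12 of the 16 counted genes of the list were at least 2-fold higher than in iWAT, with a median log2 ratio of 1.86, and in the high range 14 of 16 with 1.83. Fasn had 209 CPM in the low, 434 in the middle and 437 CPM in the high range against 18.8 CPM in iWAT. Acly had 203, 477 and 449 CPM against 28.8 CPM. Elovl6 had a wider span, at 143, 487 and 1013 CPM against 28.7 CPM, and its low range was nearer to iWAT than to the high range. Glyceride synthesis genes without those of the thermogenic list were higher in 3 of 13 in the low and 7 of 13 in the high range, where 1 was higher in iWAT. Respiratory chain genes were at least 2-fold higher in 4 of 23 in the low range and in 20 of 23 in the high range, and citrate cycle genes in 2 and 20 of 24. Fatty acid oxidation genes were higher in 3 and 15 of 21, with 1 higher in iWAT in the high range. These counts stand beside 4.96% of all genes in the low and 12.4% in the high range. Whether the lists differ between the ranges was not tested.

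White adipocyte genes followed. In the low range 4 of the 14 counted were at least 2-fold lower than in iWAT and the median log2 ratio was -0.37, and in the high range 12 were, with -2.90, beside 2.54% and 11.4% of all genes. Slc7a10 had 367, 137 and 23.5 CPM in the low, middle and high range against 466 CPM in iWAT, and Nnat had 1188, 666 and 124 CPM against 1894 CPM. Cyp2e1 had 970.2, 611 and 145 CPM against 231 CPM, so it was above iWAT in the low range and below it in the high range. Ghr had 9007, 5573 and 2373 CPM against 22063 CPM. Slc14a2 was at 268, 148 and 26.1 CPM in the ranges of mPRAT. Other white adipocyte genes were further from iWAT in the low range: Mest had 18.2 against 96.4 CPM, Aldh1a1 286 against 704 CPM and Npr3 396 against 1649.5 CPM.

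**Figure D5:**
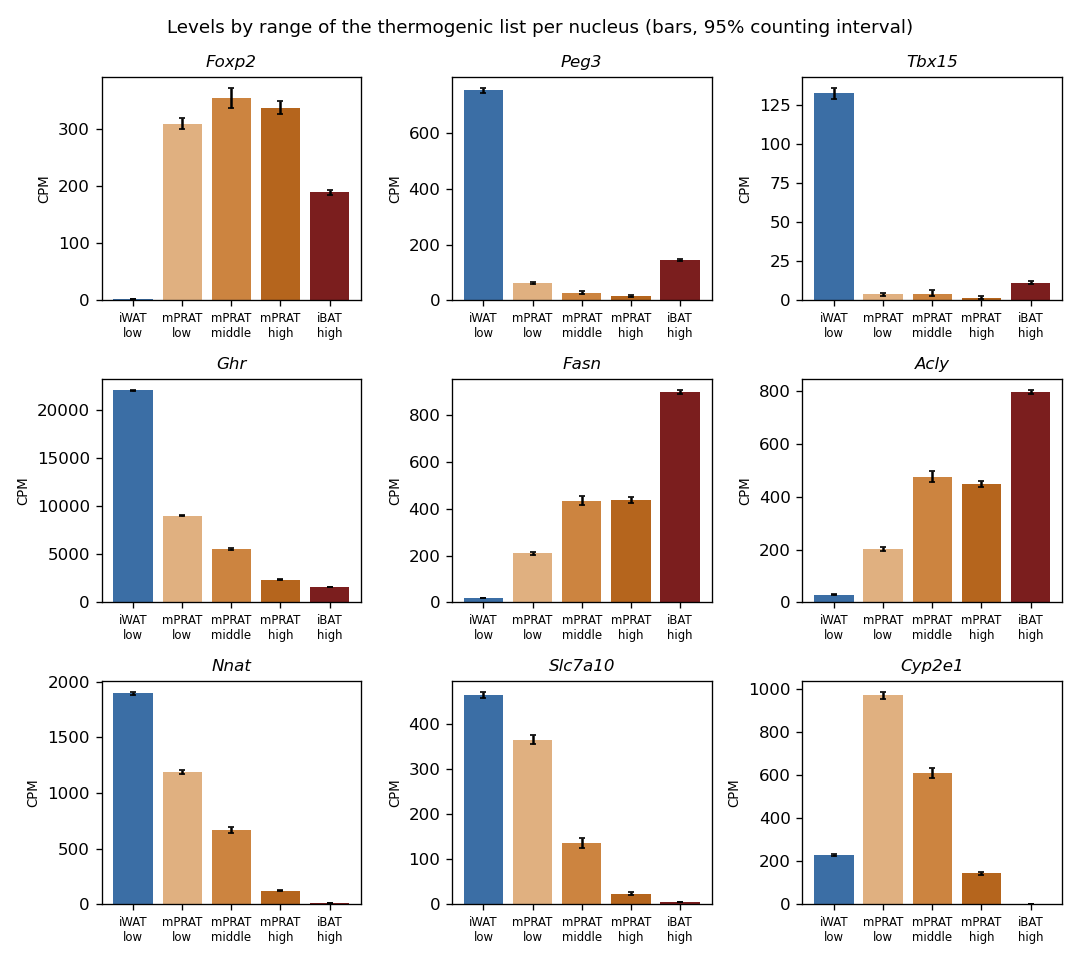
Levels (CPM, linear axes from 0, bars with 95% counting intervals) of 9 genes in the low range of iWAT, the 3 ranges of mPRAT and the high range of iBAT at 6 months and 22 °C. Foxp2 is high in all 3 ranges of mPRAT and low in iWAT, Peg3 and Tbx15 have their highest bar in iWAT, and Nnat, Slc7a10 and Cyp2e1 are lower in the high than in the low range of mPRAT.

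The 2 sets of genes also differed in length. The 645 genes higher in mPRAT had a median length of 26.3 kb in the GENCODE M21 annotation, the 380 genes higher in iWAT 63.1 kb, and all genes counted 34.9 kb. Genes over 100 kb took 43.1% of the UMIs of mPRAT adipocyte nuclei and 44.9% of those of iWAT. Mitochondrial-encoded genes took 0.319% and 0.196%. Whether length or nuclear RNA content bears on the ratios was not tested.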

How the data were processed

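Nuclei were sorted and prepared with 10x 3′ chemistry, per the labels' protocols. The deposited values are raw UMI counts per gene and barcode, 1 matrix per library, made by the authors with Cell Ranger 7.0.0 on mm10, per the submitters' processing notes. The settings of that step are not given in the sources used here.

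From these counts, nuclei with 300 or more genes and no more than 10% mitochondrial UMIs were kept and assigned by the rule given above. Counts of adipocyte nuclei were summed per library and scaled to CPM. Genes with a mean of at least 10 CPM in the 2 libraries of a pair were counted as apart at a ratio of 2 after 1 CPM was added. No doublets were removed, except in an alternative. Since each group has 1 library, precision is limited to counting error and no test was made. Such intervals treat UMIs as independent molecules.

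Genes named were the 12 with the highest and the 12 with the lowest ratio with 10 CPM added, Ucp1, the markers, and up to 6 members of each of 20 gene lists. Genes named beyond these were chosen after their values were seen. The nuclei rule, the lists and the markers were chosen with earlier results of these data known. Gene positions are from GENCODE M21 on GRCm38, the assembly that mm10 denotes. Promoters are from RefSeq on GRCm38.p6.

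The calculation was checked on simulated counts that hold counting error only. This check covers the arithmetic and not variation between libraries or nuclei. The calculation used Python 3.11.15, numpy 2.4.6, scipy 1.17.1 and pandas 2.3.3. The alternatives used edgeR 4.0.16 in R 4.3.3, for TMM factors only, and scanpy 1.11.5 for doublet scores. Values of a few single genes are not reported here.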

Additional observations from a re-analysis of the deposited data

Results flagged for a closer look

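In 5 genes reported here the ratio of mPRAT to iWAT was at least 2-fold in opposite directions at 22 °C and in the cold pair. The difference between the pairs was not tested, since each value is 1 library. Lgals3, galectin-3, had log2 ratios of -1.16 at 22 °C and 1.10 in the cold pair, with mPRAT and iWAT at 11.6 and 27.2 CPM at 22 °C and 16.8 and 7.30 CPM after cold. The other 4 were higher in mPRAT at 22 °C and lower in the cold pair. Dcun1d3 had log2 ratios of 1.14 and -1.13, Gm19951 had 1.35 and -1.47, and Gm11867 had 2.14 and -1.78. Ighm, an immunoglobulin chain and a marker of B cells, had 2.17 and -2.20, with 44.9 and 9.24 CPM at 22 °C and 5.18 and 27.4 CPM after cold.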

How the results depend on the processing

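The 24 genes with the highest and lowest ratios kept their direction and their side of 2-fold in all 288 values over 12 alternatives. They were chosen as the extremes of the same data, so this outcome was close to fixed by the choice and is no independent support. Of 4512 values of the 376 other named genes, 85 dropped below 2-fold, 65 passed it and 0 reversed. With 10 CPM added, 357 genes were higher in mPRAT, 253 in iWAT and 911 in cold mPRAT. Genes higher in mPRAT were then 6 of the respiratory list, 1 each of the adipokine, factor and creatine lists and 0 of the growth factor list, and genes higher in iWAT 3 each of the positional and matrix lists. With TMM factors 1 gene each of the adipokine, factor, creatine and interferon lists was higher in mPRAT. With a mean of at least 1 CPM, 1418 genes were higher in mPRAT and 624 in iWAT, and 2872 and 884 in the cold pair. Without a limit on low values they were 1483, 641, 3011 and 935. In both of these settings 4 adipokine, 13 positional, 1 clock and 1 interferon gene were higher in iWAT, and 2 positional, 5 factor, 5 creatine and 3 clock genes in mPRAT. With the mean over nuclei the Ucp1 ratio was 153, and 2 matrix, 0 growth factor and 2 clock genes were higher in mPRAT. With nuclei thinned to 1500 UMIs before the rule, 1 oxidation gene was higher in iWAT, and 0 positional, 0 growth factor and 2 clock genes in mPRAT. With at least 5 adipocyte UMIs, and with Acsl1 left out of the rule, 0 positional, 0 matrix and 0 growth factor genes were higher in mPRAT. Without nuclei holding lymphocyte UMIs, 0 positional, 2 matrix and 1 interferon gene were higher in mPRAT and 1 interferon gene in iWAT. With at most 5% mitochondrial UMIs 0 matrix genes were higher in mPRAT.

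The median log2 ratio of the neural list, -0.01, was 0.003 with 10 CPM added, 0.23 with a mean of at least 1 CPM and with no limit, 0.04 with at least 1000 genes per nucleus and 0.14 with doublets removed. With TMM factors the medians of adipokines and adipogenic factors were -0.06 and -0.12, and the latter was -0.02 without lymphocyte UMIs. Shares of nuclei moved with depth. Thinned to 1000 UMIs they were 13.1% for Ucp1 in mPRAT, 32.9% and 19.1% for Cyp2e1 in mPRAT and iWAT, 12.9% and 33.1% for Slc7a10, 7.56% and 15.5% for Lep, and 23.8% and 61.0% for Nnat. Without thinning they were 28.2% and 0.248%, 60.0% and 49.7%, 34.7% and 74.4%, 28.7% and 49.1%, and 45.8% and 85.5%, with Ucp1 first. In a setting chosen after seeing the data, nuclei were thinned to 1000 UMIs and the limits set again by the same percentiles, at most 6 and from 10 UMIs. Then 51.0% of mPRAT nuclei were in the low, 7.39% in the middle and 41.6% in the high range. The cause of these shifts was not tested. No paired analysis was possible because each group has 1 library, and no library could be left out of a comparison for the same reason.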
